A study of Mus musculus with 40 samples.

Results

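The *Gata*, *Tal1* and *Hand* genes encode transcription factors that specify blood, heart, endoderm, sympathetic neurons and particular inhibitory neurons. The 8 genes *Gata2*, *Gata3*, *Tal1*, *Gata4*, *Gata5*, *Gata6*, *Hand1* and *Hand2* were taken as a list, out of 55450 annotated mouse genes, of which 21951 are protein-coding. For each gene, peaks of H3K27me3 and H3K4me3 were examined at its promoters, windows that ran from 2000 bp before to 1000 bp after every transcript start in mm10. The base pairs under the peaks that touched these promoters were summed as the gene's domain length. The libraries were ChIP-seq of primary oligodendrocyte progenitor cells (OPCs), grown from the brainstem or the dorsal telencephalon (cortex, corpus callosum and hippocampus, labelled cortex) of mice aged postnatal day 5 to 7. K27M cultures came from mice in which Cre recombination switches on the mutant histone H3.3 K27M at its own *H3-3a* locus, and control cultures came from littermates, whose alleles the labels do not list. The labels name the cross AMGFAP-Cre;K27M and the study calls the driver hGFAP-Cre, which acts in neural stem and progenitor cells. Tissue was pooled from several pups by region and genotype, depleted of endothelial cells and microglia on a BSL1 lectin plate, selected with an antibody to PDGFRa, and expanded in proliferation medium with PDGF, CNTF, neurotrophin-3 and forskolin, with no differentiation. For each mark there were 2 brainstem pairs of control and K27M (cultures 59 and 61) and 3 telencephalon pairs (cultures 59, 60 and 61), that is 5 matched pairs and, over both marks, 20 libraries.

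H3K27me3 is laid down by Polycomb repressive complex 2 and marks genes that are held silent, often over broad domains centred on CpG-rich promoters of developmental regulators. The K27M mutation replaces the modified lysine and is known to impair that complex, while H3K4me3 marks promoters that are active or poised, and a promoter with both marks is called bivalent. In the embryonic brainstem and spinal cord, *Gata2*, *Gata3* and *Tal1* act as selector genes of inhibitory interneurons, and *Gata2* and *Gata3* also act in serotonergic neurons. *Gata4*, *Gata5* and *Gata6* direct heart and endoderm development, and *Hand1* and *Hand2* encode basic helix-loop-helix factors of the heart, of which *Hand2* also acts in sympathetic neurons.

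The bases just upstream of 5 transcript starts of 4 of the genes are shown because they span the range seen in K27M, from *Gata3*, which had H3K4me3 in most K27M libraries, to *Tal1*, which had it in none, while H3K27me3 covered all of them in 10 of 10 libraries. Each is the 250 bases before an annotated start, from RefSeq on GRCm38.p6, written in the direction of transcription, with CpG dinucleotides in capitals. The coordinates are chr6:88193641-88193890 (plus strand) for the distal *Gata2* start, chr2:9878601-9878850 (minus strand) for *Gata3*, chr4:115056176-115056425 and chr4:115057561-115057810 (plus strand) for the upstream and downstream *Tal1* starts, and chr8:57320733-57320982 (plus strand) for *Hand2*.
Gata2 distal: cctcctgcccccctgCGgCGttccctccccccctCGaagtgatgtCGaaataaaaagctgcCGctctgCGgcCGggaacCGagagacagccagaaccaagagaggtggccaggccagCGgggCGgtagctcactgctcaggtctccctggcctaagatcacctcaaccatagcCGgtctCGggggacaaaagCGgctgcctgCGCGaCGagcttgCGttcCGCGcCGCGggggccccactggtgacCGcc
Gata3: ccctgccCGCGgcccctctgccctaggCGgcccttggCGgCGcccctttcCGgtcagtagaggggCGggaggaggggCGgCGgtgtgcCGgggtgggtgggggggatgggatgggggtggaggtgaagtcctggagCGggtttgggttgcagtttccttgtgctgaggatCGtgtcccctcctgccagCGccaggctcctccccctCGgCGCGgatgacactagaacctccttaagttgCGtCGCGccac
Tal1 upstream: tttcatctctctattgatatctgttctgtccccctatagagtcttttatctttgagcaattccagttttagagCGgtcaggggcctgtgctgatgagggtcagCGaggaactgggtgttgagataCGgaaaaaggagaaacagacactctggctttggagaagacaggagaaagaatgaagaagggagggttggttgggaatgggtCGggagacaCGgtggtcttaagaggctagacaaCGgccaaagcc
Tal1 downstream: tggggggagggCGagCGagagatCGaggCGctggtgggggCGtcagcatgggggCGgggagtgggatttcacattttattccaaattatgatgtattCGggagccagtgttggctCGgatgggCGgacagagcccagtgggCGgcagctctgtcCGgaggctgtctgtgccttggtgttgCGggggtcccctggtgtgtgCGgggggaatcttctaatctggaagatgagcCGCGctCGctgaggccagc
Hand2: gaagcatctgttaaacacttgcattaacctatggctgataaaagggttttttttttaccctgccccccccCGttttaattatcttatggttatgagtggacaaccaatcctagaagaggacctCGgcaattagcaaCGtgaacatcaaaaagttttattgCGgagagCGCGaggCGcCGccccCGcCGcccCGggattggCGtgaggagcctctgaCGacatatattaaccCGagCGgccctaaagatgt
These windows hold 22 CpG for *Gata2*, 19 for *Gata3*, 6 and 16 for the upstream and downstream *Tal1* starts and 15 for *Hand2*, where the median over 32851 RefSeq promoters of this length is 6. An H3K4me3 peak covered part of the window or of the 50 bases after the start in 4 control and 1 K27M library for the distal *Gata2* start, in 5 and 4 for *Gata3*, in 2 and 0 for the upstream and 3 and 0 for the downstream *Tal1* start, and in 3 and 0 for *Hand2*. RefSeq promoters were matched for 5 of the 8 genes, at 7 starts of 300 bases each. The letters GATAAG, the core recognised by GATA factors, were found on neither strand of these 7 windows and in 7.44% of all promoters. CAGATG, an E-box sequence, was found on either strand in the 300-base windows of the upstream *Tal1* start and of *Hand2*. It occurred in 17.2% of all promoters, and neither motif contains the other. At *Tal1* the match lies in the 50 bases after the start, which are not printed above.

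The H3K27me3 libraries differed in how much was called, from 12715 to 64808 peaks and 26.5 to 152 Mb in controls and from 4739 to 15753 peaks and 13.3 to 41.4 Mb in K27M. H3K4me3 peaks numbered 20961 to 31200. In H3K4me3, telencephalon controls 60 and 61 stood apart, with a 99th percentile of fold enrichment of 131 and 84.9 against 11.5 to 51.2 in the other 8 libraries. For the *Gata*, *Tal1* and *Hand* genes, results that rest on controls 60 and 61 are given without them as well. The OPC markers *Olig1*, *Olig2*, *Sox10*, *Pdgfra*, *Cspg4* and *Nkx2-2* had an H3K4me3 promoter peak in 10 of 10 libraries. The endothelial genes *Pecam1*, *Cdh5*, *Tek* and *Tie1* and all 5 microglia and blood markers had none in any library, whereas endothelial *Kdr* had one in 10 of 10. All 4 neuron markers (*Rbfox3*, *Snap25*, *Syt1* and *Tubb3*) and 2 of 4 astrocyte markers (*Gja1* and *Slc1a3*) also had one in 10 of 10.

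All 8 genes carried H3K27me3 at a promoter in 10 of 10 libraries, in both regions and both genotypes. In single libraries, 3.76% to 20.2% of all genes had such a peak. The domains were long, and for each of the 8 genes telencephalon culture 59, which had the fewest peaks of its group, gave the shortest of the 3 in both genotypes. Over the 80 combinations of gene and library, the length lay between the 66.0th and 98.5th percentile of the genes marked in the same library, with a median at the 90.9th. *Gata4* and *Hand2* had the longest domains, with medians of 50.2 and 52.3 kb over the 10 libraries, and *Gata5* the shortest, with 8.42 kb. The median was 32.6 kb for *Gata3*, 20.9 kb for *Tal1*, 20.9 kb for *Gata6*, 17.9 kb for *Gata2* and 17.9 kb for *Hand1*.

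*Gata2* lies at chr6:88193891-88207032 on the plus strand. Its H3K27me3 domain measured 15.9 and 17.3 kb in brainstem controls and 19.9 and 19.2 kb in brainstem K27M. In the telencephalon it measured 14.4, 19.3 and 16.8 kb in control cultures 59, 60 and 61 and 16.3, 18.6 and 19.1 kb in K27M. The brainstem groups did not overlap, the telencephalon groups did, and the domain was longer in K27M in 4 of 5 pairs. Separation of the 2 brainstem controls from the 2 K27M libraries, here and for the genes below, was not counted over all genes. As log2 of the length after adding 1000 bp, K27M exceeded control by a mean of 0.15 (SD 0.13, n = 5 pairs). The p was 0.125 in an exact test that flips the signs of the pair differences, two-sided, and 0.437 after Benjamini-Hochberg adjustment over 14152 genes.

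*Gata3*, at chr2:9857078-9890034 on the minus strand, is the one gene of the 8 whose domain was shorter in K27M in every pair, although relative to the median of all genes it was longer. The domain spanned 39.0 and 33.0 kb in brainstem controls against 32.2 and 32.7 kb in K27M, and 32.0, 37.4 and 41.3 kb in telencephalon controls against 30.9, 32.3 and 32.5 kb. The log2 ratio was −0.17 (SD 0.14, n = 5, exact sign-flip p = 0.0625, Benjamini-Hochberg adjusted p = 0.437), and relative to the median of all genes 0.37. That is the smallest p that 5 pairs can give, and 1 of 8 genes compares with 13.2% of all 14152 genes and with 46.3% of the 1820 genes that carried H3K27me3 in all 10 libraries. The 5 K27M values lay between 30.9 and 32.7 kb, and the 5 control values spread from 32.0 to 41.3 kb. The genotypes did not overlap in the brainstem and did in the telencephalon. Without telencephalon culture 59, 3 of the 8 genes were shorter in every remaining pair.

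*Tal1*, at chr4:115056426-115071755 on the plus strand, encodes the helix-loop-helix partner of the GATA factors in blood and in inhibitory neurons. Its domain was 20.6 and 19.3 kb in brainstem controls, 22.2 and 20.7 kb in brainstem K27M, 16.95, 21.4 and 22.4 kb in telencephalon controls and 18.4, 21.2 and 21.4 kb in telencephalon K27M. The brainstem K27M values lay just above those of the controls, and the telencephalon groups overlapped. The log2 ratio of 0.047 (SD 0.080) was smaller than its SD.

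Among the heart and endoderm genes, *Gata4* lies at chr14:63198922-63271692 and *Gata5* at chr2:180325133-180334699, both on the minus strand, and *Gata6* on chromosome 18. The *Gata4* domain was 52.4 and 57.2 kb in brainstem controls and 51.0 and 49.6 kb in K27M, and 44.6, 50.8 and 104 kb in telencephalon controls and 44.8, 49.4 and 46.4 kb in K27M. The 104 kb of telencephalon control 61 stood far from the other 9 values, which ranged from 44.6 to 57.2 kb. *Gata5* had 10.1 and 10.9 kb in brainstem controls, 8.51 and 7.27 kb in brainstem K27M, 5.28, 13.8 and 15.4 kb in telencephalon controls and 5.84, 8.32 and 8.34 kb in telencephalon K27M. Both genes were shorter in brainstem K27M without overlap and in 4 of 5 pairs in all, with telencephalon culture 59 as the exception, and the log2 ratios were −0.28 (SD 0.49) and −0.42 (SD 0.37), which relative to the median of all genes turned to 0.26 and 0.12. Without telencephalon culture 61 the log2 ratio of *Gata4* was −0.068. *Gata6* stayed between 19.1 and 22.8 kb in controls and between 19.2 and 21.8 kb in K27M, with a log2 ratio of −0.0049 (SD 0.11).

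The *Hand* genes lie at chr11:57828705-57832818 (*Hand1*, minus strand) and chr8:57320983-57324633 (*Hand2*, plus strand). *Hand1* measured 16.7 and 17.4 kb in brainstem controls and 18.1 and 18.8 kb in brainstem K27M, which did not overlap, and 17.5, 19.3 and 17.7 kb in telencephalon controls and 17.1, 18.8 and 18.6 kb in telencephalon K27M, which did. *Hand2* measured 50.3 and 70.8 kb in brainstem controls and 57.8 and 57.0 kb in brainstem K27M, and 50.2, 52.4 and 51.7 kb in telencephalon controls and 51.3, 54.0 and 52.3 kb in telencephalon K27M. The log2 ratios were 0.042 (SD 0.075) and −0.0040 (SD 0.18). Both genes are short, and the domain of *Hand2* reached far beyond the gene.

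**Figure D1:**
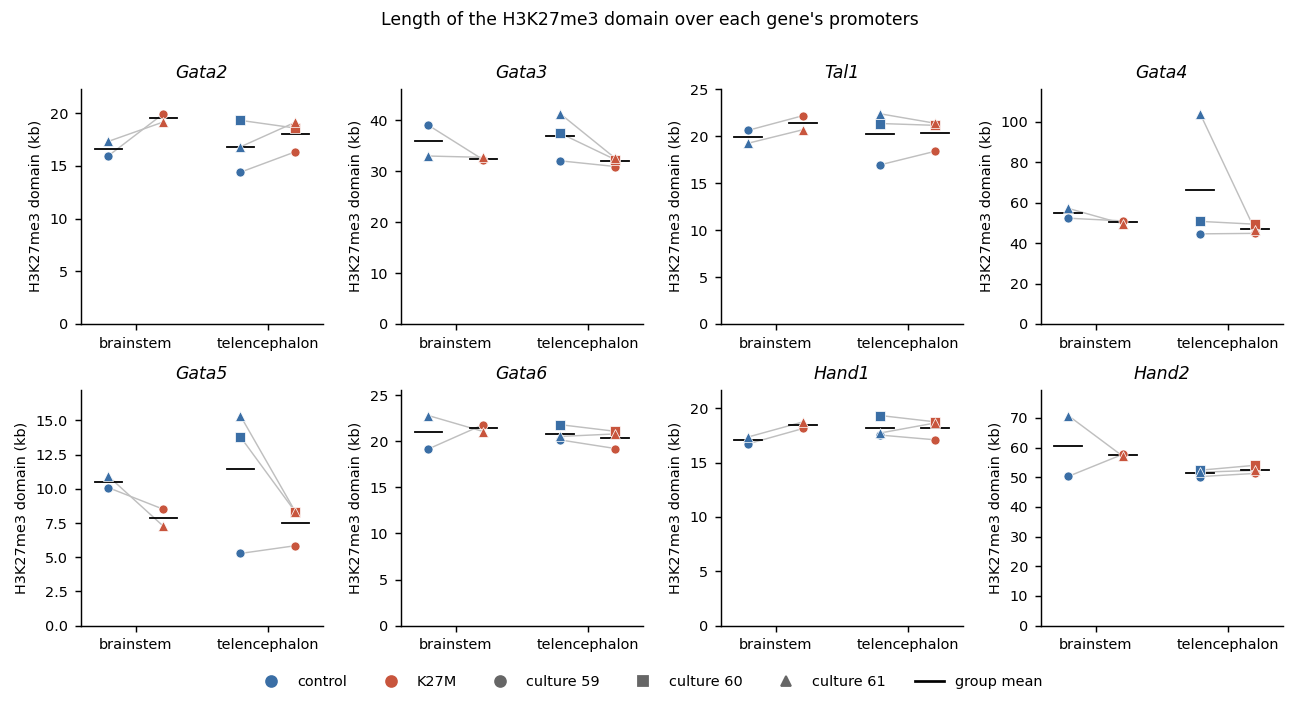
Length of the H3K27me3 domain (kb, linear axis from 0) over the promoters of each gene in each of 10 libraries, control in blue and K27M in red, with the culture given by the symbol, matched pairs joined by grey lines and group means as black bars. *Gata3* was lower in K27M in all 5 pairs and *Gata4* and *Gata5* in 4 of 5, all of which were higher relative to the median of all genes, and the other genes went in both directions, with the 104 kb of *Gata4* in telencephalon control 61 above all other values.

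Over the 8 genes, the median log2 ratio of domain length in K27M against control was −0.0045. Over all 14152 genes with an H3K27me3 promoter peak in at least 1 library it was −0.54, and over the 1820 genes marked in all 10 libraries it was −0.44. Relative to the median of all genes, the median over the 8 genes was therefore 0.54. Among the 40 combinations of gene and pair, the domain was shorter in K27M in 22 and longer in 18. None of the 14152 genes passed the exact sign-flip test, whose smallest p of 0.0625 became 0.437 after Benjamini-Hochberg adjustment, so no count at p under 0.05 was possible. The domains of the genotypes overlapped in position. The Jaccard index (shared over combined base pairs) between the domains of a matched pair had a median of 0.889 over the genes, from 0.711 for *Gata5* to 0.942 for *Tal1*. The lowest single value was 0.446, for *Gata4* in telencephalon culture 61. The median over the 1820 genes was 0.648, and 39.5% of them were above the lowest of the 8 genes. Genes of similar domain length were not compared. Between the K27M libraries the median over the 8 genes was 0.938, and between control libraries 0.871.

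Outside the domains, less of the surrounding region lay under peaks in K27M. Base pairs under H3K27me3 peaks within 50 kb of either side of each gene, apart from its domain, were fewer in 5 of 5 pairs for *Gata3*, *Tal1*, *Gata4*, *Gata5* and *Hand2*, as they did for 37.2% of the 13610 genes with such peaks. For *Gata4* they summed to 48.7 and 40.9 kb in brainstem controls and 4.68 and 4.35 kb in brainstem K27M, and to 5.54, 33.1 and 20.6 kb in telencephalon controls and 0, 3.22 and 0.391 kb in telencephalon K27M. No *Gata4* value of K27M reached the lowest control. For *Gata3* they were 31.9 and 11.3 kb against 0.410 and 0.371 kb in the brainstem and 1.20, 8.73 and 21.3 kb against 0, 1.03 and 0 kb in the telencephalon, again without overlap between the genotypes. How many of all genes were separated in this way was not counted. *Tal1*, which has *Stil*, *Cyp4x1* and *Pdzk1ip1* within this distance, kept 2.26 to 16.2 kb in K27M, where the controls had 6.68 to 34.5 kb.

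The log2 ratios of these flanking base pairs, after adding 1000 bp, were −3.12 (SD 1.46) for *Gata3*, −1.35 (SD 0.59) for *Tal1*, −3.16 (SD 0.47) for *Gata4*, −2.99 (SD 1.82) for *Gata5* and −1.41 (SD 0.94) for *Hand2*. For each the exact sign-flip p was 0.0625, and the Benjamini-Hochberg adjusted p was 0.167. *Gata2* had −1.58 (SD 1.88) with 4 of 5 pairs lower, and *Gata6* and *Hand1*, with at most 0.934 and 3.84 kb of such peaks in any library, had −0.42 and −0.99, which turned to 0.92 and 0.35 relative to the median of all genes. The median over the 8 genes was −1.50 and that over all 13610 genes −1.34, so that relative to all genes it was −0.16. When each library was reduced to the same number of peaks, *Gata6* and *Hand1* had no flanking peaks left, and the median over the other 6 genes was −0.90, against −2.29 with all peaks. The change at *Tal1* was −0.010 relative to the median of all genes and −0.0015 at equal numbers of peaks. That at *Gata4* was −0.27 (exact sign-flip p = 0.75) when peaks up to 3000 bp apart were joined. Whether signal remained below the peak threshold cannot be read from peak lists.

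**Figure D2:**
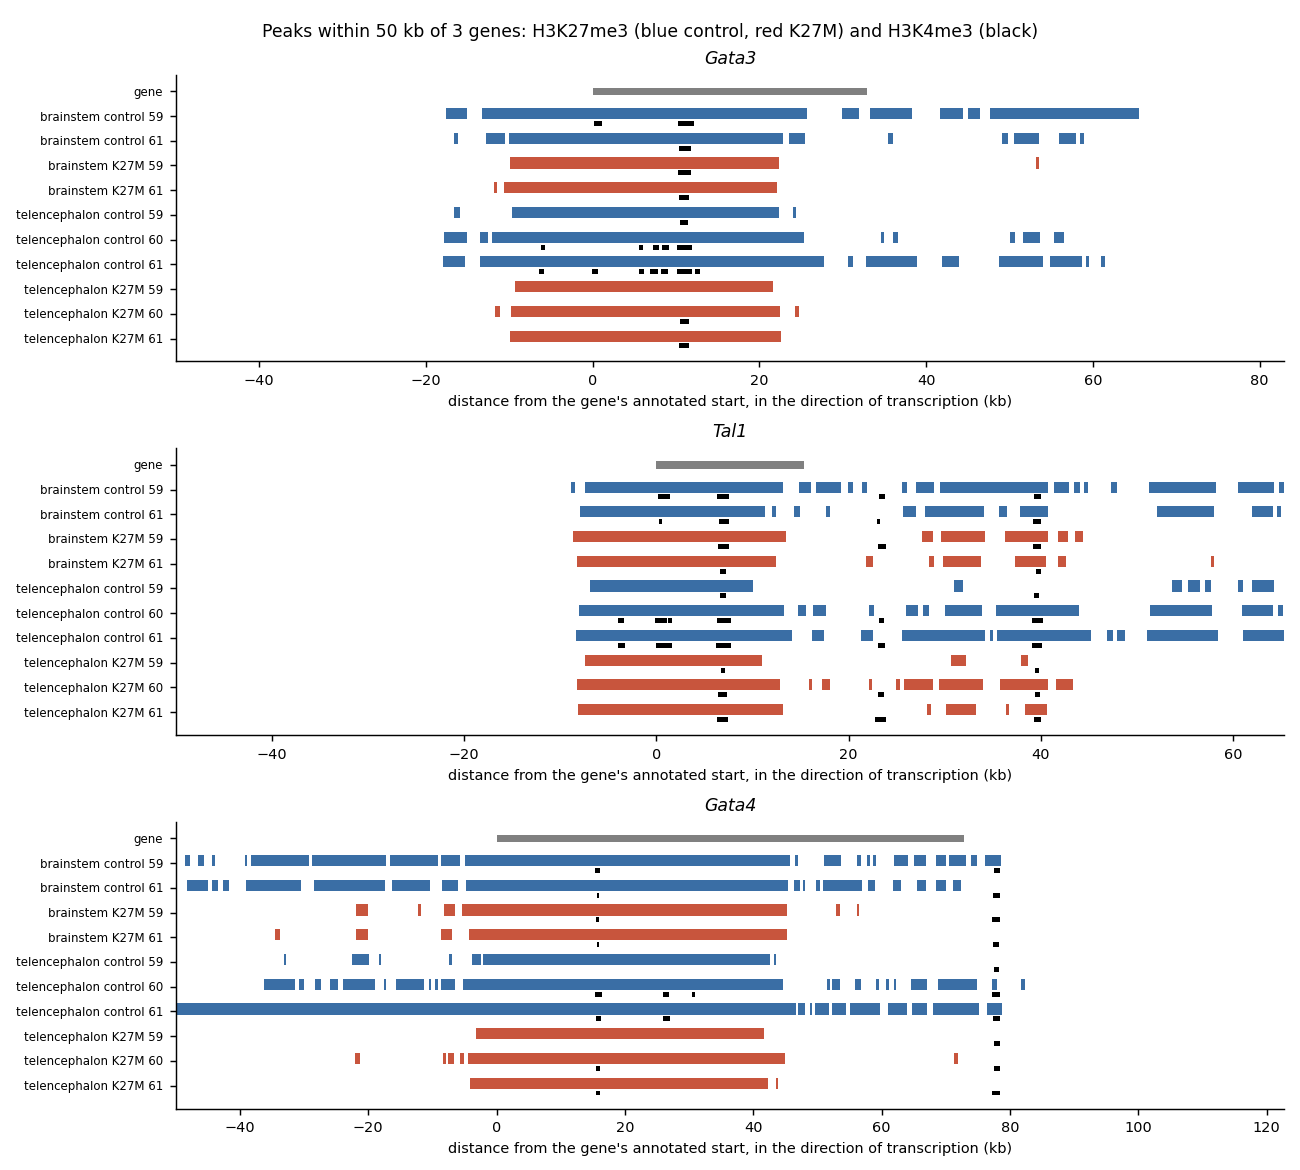
Peaks around *Gata3*, *Tal1* and *Gata4* in each library, with the distance from the gene's annotated start in kb on the x axis. H3K27me3 is drawn in blue for control and red for K27M, H3K4me3 in black below it, and the gene in grey. The central H3K27me3 domain has similar edges in the 10 libraries, except at *Gata4* in telencephalon control 61, where a domain of 104 kb in 2 pieces runs past the left edge, and more of the region beside it is marked in controls than in K27M.

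**Figure D3:**
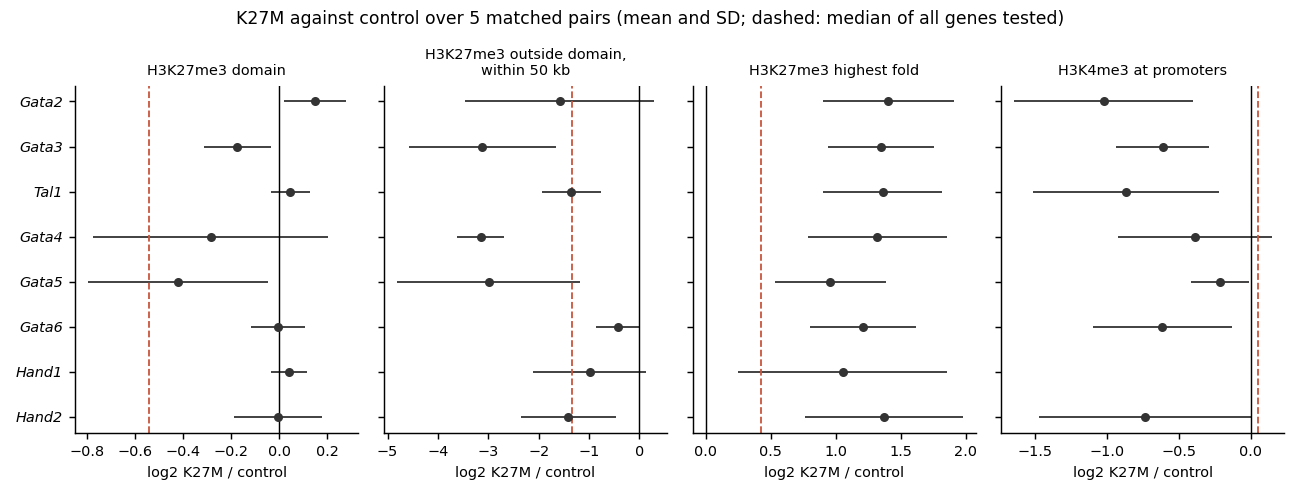
Mean log2 ratio of K27M to control with its SD over 5 matched pairs for each gene, with a solid line at 0 and a dashed line at the median of all genes tested. From left to right, the H3K27me3 domain length lies around 0 and right of the dashed line, the H3K27me3 base pairs outside the domain lie on either side of it, the fold enrichment right of it and the H3K4me3 length left of it. *Hand1* has no H3K4me3 point because it had no peak.

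Within the domains, the fold enrichment over input was higher in K27M in every pair for 7 of the 8 genes. The value taken for a gene is the highest among the broad peaks at its promoters, and the authors' peak caller gives it as a mean over each peak. For *Gata2* it was 8.24 and 8.35 in brainstem controls against 27.7 and 28.2 in brainstem K27M. In the telencephalon it was 3.30, 17.5 and 9.19 in control cultures 59, 60 and 61 against 7.90, 26.3 and 29.4 in K27M. Each K27M value was above that of its own pair, but K27M culture 59 was below controls 60 and 61. *Hand2* had 8.03 and 9.64 against 29.5 and 37.0 in the brainstem, and 6.40, 18.2 and 10.9 against 11.7, 27.7 and 32.6 in the telencephalon. *Hand1* was the one gene with an exception, in telencephalon culture 60, where the control had 15.4 and K27M 13.2.

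Over the 8 genes, the values ranged from 5.45 to 10.7 in brainstem controls, 14.3 to 37.0 in brainstem K27M, 2.89 to 18.2 in telencephalon controls and 5.20 to 32.6 in telencephalon K27M. The mean log2 ratio ran from 0.96 (SD 0.43) for *Gata5* to 1.41 (SD 0.50) for *Gata2*. For 7 of the 8 genes the fold enrichment was higher in 5 of 5 pairs (p = 0.0625, exact sign-flip test, adjusted p = 0.125 by Benjamini-Hochberg over 1820 genes), and for *Hand1* in 4 of 5 (exact p = 0.125). Of the 1820 genes marked in all 10 libraries, 46.4% were higher in 5 of 5 pairs. The median ratio was 2.52 over the 8 genes and 1.34 over those 1820. Fold enrichment is relative to the rest of its own library, and across all peaks its 99th percentile was 4.99 to 9.57 in controls and 9.40 to 25.4 in K27M. The part of this shift in the genes' values was not tested beyond the comparison with the other marked genes, relative to which the median log2 ratio was 0.91.

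**Figure D4:**
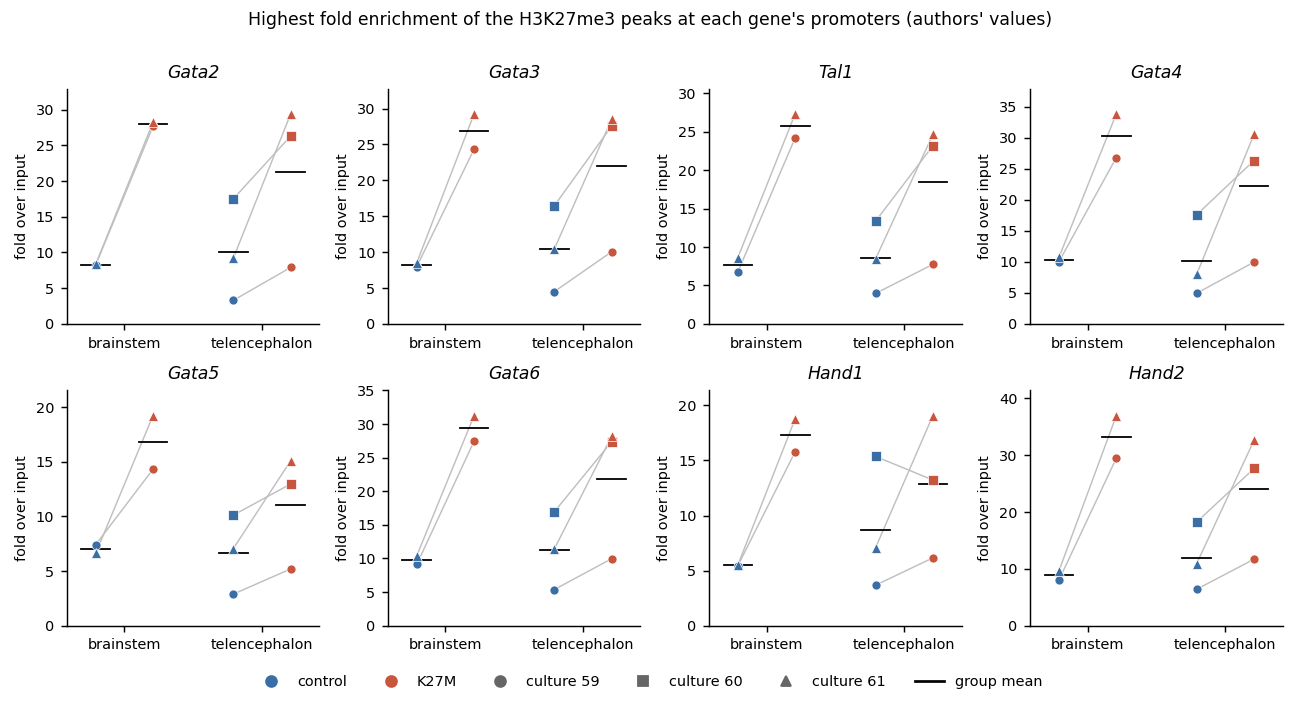
Highest fold enrichment over input (authors' value, linear axis from 0) of the H3K27me3 peaks at each gene's promoters, with symbols, lines and bars as in the plot of domain lengths. The line of every matched pair rises from control to K27M, except for *Hand1* in telencephalon culture 60, and the values of culture 59 in the telencephalon are the lowest of their group.

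H3K4me3 separated the genes. *Hand1* had no H3K4me3 promoter peak in any of 10 libraries and *Gata4* had one only in telencephalon controls 60 and 61. *Gata3* had one in 9 libraries, *Gata2* and *Gata6* in 8, *Gata5* in 6, and *Tal1* and *Hand2* in 4. In single libraries 0 to 7 of the 8 genes had a peak, where 29.6% to 34.2% of all genes and 58.8% to 65.1% of protein-coding genes had one. All 57 peaks lay entirely within the H3K27me3 domain of the same culture. Peaks and domains were both chosen for touching the gene's promoters, and the share for other marked genes was not counted. In telencephalon culture 59, 1 gene had a peak in the control (*Gata3*) and none in K27M, where 29.6% and 30.6% of all genes had one.

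For *Gata2*, the base pairs under H3K4me3 peaks were 3.65 and 1.86 kb in brainstem controls and 0.998 and 0.466 kb in brainstem K27M. In the telencephalon they were 0, 5.07 and 5.25 kb in controls and 0, 0.932 and 1.56 kb in K27M. The brainstem groups did not overlap, and in the telencephalon culture 59 had no peak in either genotype. The peak at the distal start, whose upstream bases are shown above, was called in 4 of 5 controls and in 1 of 5 K27M libraries, while a peak at the proximal start was called in 4 of 5 controls and in 4 of 5 K27M libraries.

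*Gata3* had 2.88 and 1.46 kb in brainstem controls against 1.48 and 1.14 kb in K27M, and 0.994, 1.80 and 3.05 kb in telencephalon controls against 0, 1.13 and 1.26 kb in K27M. It was shorter in K27M in 5 of 5 pairs, as were 0.545% of all 20000 genes with an H3K4me3 promoter peak and 3.1% of those that also had H3K27me3 in all 10 libraries, with a log2 ratio after adding 1000 bp of −0.61 (SD 0.32, n = 5, exact sign-flip p = 0.0625, adjusted p = 0.766 by Benjamini-Hochberg over 20000 genes).

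*Tal1* had 1.24 and 0.289 kb in brainstem controls, 0, 1.58 and 1.73 kb in telencephalon controls, and no promoter peak in any of the 5 K27M libraries. *Hand2* had 1.82 and 0 kb in brainstem controls and 0, 1.54 and 1.75 kb in telencephalon controls, and in K27M a peak of 0.525 kb in telencephalon culture 60 alone. *Gata4* had 0.982 and 0.953 kb in telencephalon controls 60 and 61 and no peak elsewhere. Together with *Hand1*, these are the genes that had H3K4me3 in at most 1 K27M library.

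*Gata6* kept its peaks in the same cultures in both genotypes, with 2.36 and 0.607 kb in brainstem controls against 1.27 and 0.287 kb in K27M, and 0, 3.56 and 3.77 kb in telencephalon controls against 0, 1.23 and 1.13 kb in K27M. *Gata5* had 0.820 kb in brainstem control 59 and 0.422 kb in its K27M pair, and 1.47 and 1.27 kb in telencephalon controls 60 and 61 against 0.837 and 0.859 kb. Both genes were shorter in K27M in each pair in which a peak was called.

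**Figure D5:**
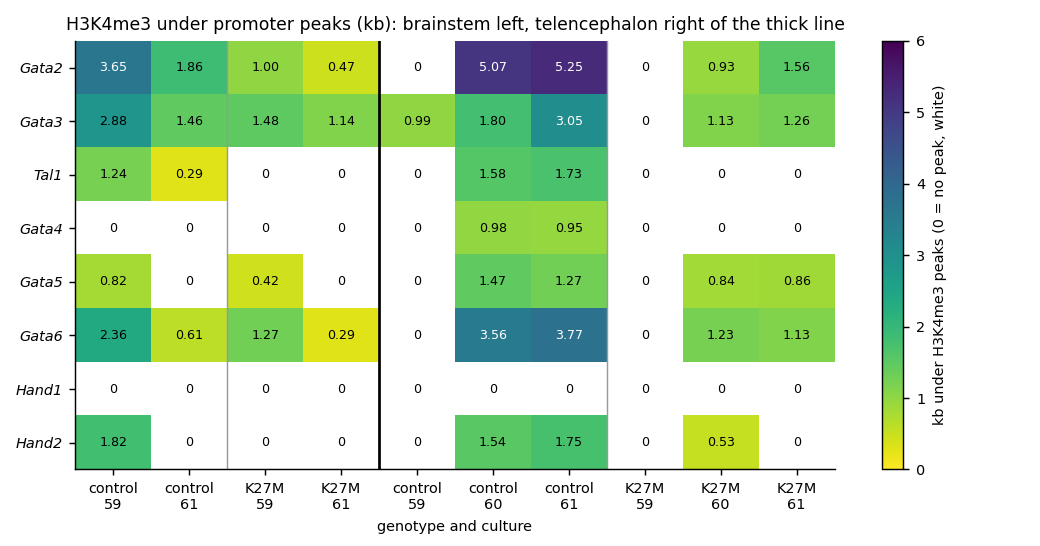
Base pairs under H3K4me3 promoter peaks (kb, colour scale from 0 to 6) for each gene and library, with 0 and white where no peak was called. *Tal1* and *Gata4* have no peak in any K27M library, *Hand1* has none in any library, and every K27M value of the remaining genes is below that of its control or at 0 with it.

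Across the 7 genes with a peak, all 25 combinations of gene and pair that had an H3K4me3 peak in the control were shorter in K27M, 9 of them with no peak there, and none was longer. In bulk cultures, fewer cells with the mark and less of it per cell cannot be told apart. Lower in at least 4 of 5 pairs and higher in none were *Gata2*, *Gata3*, *Tal1* and *Gata6*, that is 4 of 7, where this held for 1.32% of the 20000 genes and for 10.5% of the 1614 of them with H3K27me3 in all 10 libraries. Lower in at least 1 pair and higher in none held for 7 of 7, for 7.32% of the 20000 and for 25.4% of the 1614. The log2 ratios were −1.02 (SD 0.62) for *Gata2*, −0.87 (SD 0.65) for *Tal1*, −0.74 (SD 0.74) for *Hand2*, −0.62 (SD 0.49) for *Gata6*, −0.39 (SD 0.53) for *Gata4* and −0.22 (SD 0.20) for *Gata5*. With *Gata3*, their median was −0.62, against 0.052 over the 20000 genes and −0.083 over the 1614, and with 200 bp added in place of 1000 bp it was −1.10. None of the 20000 genes passed the exact sign-flip test, the lowest p of 0.0625 becoming 0.766 after Benjamini-Hochberg adjustment. Without telencephalon cultures 60 and 61 the median was −0.50. The values were then −0.73 for *Gata2*, −0.61 for *Gata3*, −0.51 for *Tal1*, −0.50 for *Hand2*, −0.30 for *Gata6* and −0.12 for *Gata5*, while *Gata4* had 0, its H3K4me3 change resting on those cultures alone. Within the regions the means were of the same sign, at −1.09 and −0.98 for *Gata2* and −0.77 and −0.94 for *Tal1* in brainstem and telencephalon.

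The enrichment of the H3K4me3 peaks moved with their length. In the 16 combinations of gene and pair with a peak in both genotypes, the highest fold enrichment was lower in K27M in 16, with a median ratio of 0.354 and a range from 0.0850 to 0.968. Over all genes, 52.5% of 86577 such combinations were lower, with a median ratio of 0.968, and for the genes with H3K27me3 in all 10 libraries 64.6% of 5819 were lower, with a median of 0.782. In telencephalon controls 60 and 61, which stood apart, the peaks of the 7 genes had a fold enrichment of 8.73 to 44.9, and in their K27M pairs of 3.09 to 7.40. Within the brainstem, which these libraries do not touch, the fold enrichment was lower in K27M in 7 of 7 combinations, with a median ratio of 0.63. Relative to the median fold enrichment of each library the counts were 15 of 16 and 6 of 7, the exception being *Gata5* in brainstem culture 59, with 0.469 of that median in the control and 0.661 in K27M. From control to K27M, that median fell from 9.53 to 6.55 in brainstem culture 59 and rose from 7.03 to 8.78 in brainstem culture 61. The shares of all genes within the brainstem, or relative to the library median, were not counted.

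H3K4me3 peaks were also called inside the H3K27me3 domains away from the promoters of the 8 genes themselves. There were 17 such sites, at *Gata3*, *Tal1*, *Gata4*, *Gata6*, *Hand1* and *Hand2*, of which 8 coincide with promoters of other annotated genes, and these 8 were called in controls only. A group of 4 sites was found in both genotypes. The site 6.17 to 7.79 kb downstream of the *Tal1* start, within the gene, was called in 5 of 5 controls and 5 of 5 K27M libraries, although the *Tal1* promoters had no H3K4me3 peak in K27M. The site 15.3 to 16.4 kb downstream of the *Gata4* start and one 4.34 to 5.49 kb downstream of the *Hand1* start were each called in 4 controls and 4 K27M libraries, and one 32.4 to 33.4 kb downstream of the *Hand2* start in 4 and 5. The other 13 sites were called in controls only, 10 of them only in telencephalon controls 60 and 61. For the 1820 genes with H3K27me3 in all 10 libraries, 54.7% of 3021 such sites were called in controls only. That share includes telencephalon controls 60 and 61 and was not computed without them. Of the 13, a *Hand2* site between −8.60 and −7.68 kb from the start coincides with a promoter of *Hand2os1*, the long noncoding RNA transcribed away from *Hand2*, and was called in 3 controls.

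Consensus peaks, which had to recur in at least 2 cultures of a group and pass p-value thresholds, gave each gene a promoter state. In brainstem controls *Gata2*, *Gata3* and *Gata6* were bivalent and the other 5 genes carried H3K27me3 only. The state of each of the 8 genes was the same in brainstem K27M. *Tal1* nevertheless had H3K4me3 peaks of 1.24 and 0.289 kb in brainstem controls 59 and 61, outside the consensus, and none in brainstem K27M. In telencephalon controls 7 of 8 genes were bivalent, all but *Hand1*, and in telencephalon K27M again *Gata2*, *Gata3* and *Gata6*. *Tal1*, *Gata4*, *Gata5* and *Hand2* were therefore called H3K27me3 only in telencephalon K27M. For *Gata5* this came from the consensus rule, since H3K4me3 peaks of 0.837 and 0.859 kb were called in K27M cultures 60 and 61. Of all genes, 4.60% were bivalent in brainstem controls, 3.05% in brainstem K27M, 7.31% in telencephalon controls and 3.53% in telencephalon K27M. Most of all genes carry neither mark, whereas the 8 genes all carry H3K27me3. In the same order, 2551, 1691, 4056 and 1959 genes were bivalent, and 1669, 1016, 2082 and 873 carried H3K27me3 only. Among genes with H3K27me3, bivalent ones were thus the larger part in each group, which 3 of 8 is not. The telencephalon control count rested on 2 libraries, and without control 60 or without control 61 it was 1, *Gata3*, the gene that had a peak in control 59. No test of the counts was made, since the groups hold 2 or 3 libraries.

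Between the control cultures of the regions, the H3K27me3 domains overlapped in length for 7 of the 8 genes. The log2 ratio of telencephalon to brainstem controls ran from −0.21 for *Hand2* to 0.17 for *Gata4*, with a median of 0.0097 over the 8 genes and −0.014 over 14106 genes. *Hand1* was the one gene whose regions did not overlap, with 16.7 and 17.4 kb in the brainstem and 17.5, 19.3 and 17.7 kb in the telencephalon (log2 ratio 0.088, two-sided exact permutation p = 0.2, n = 2 and 3). Every telencephalon library was above every brainstem library for 1.05% of all genes and below for 2.85%. With 2 cultures against 3, the exact test cannot give a p under 0.1. For H3K4me3 the regions overlapped for all 7 genes, whereas every telencephalon library was above for 0.864% and below for 21.4% of all genes. The median log2 ratio was 0.19, and it depended on single libraries, from −0.27 without brainstem control 61 to 0.76 without telencephalon control 59, in which *Gata3* alone had a peak.

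The change from control to K27M was also compared between the regions. For the H3K27me3 fold enrichment, the log2 ratio was 1.25 to 1.91 in the brainstem and 0.65 to 1.18 in the telencephalon, and the exact permutation p of the difference, with 2 pairs against 3, was 0.2 to 0.5 without adjustment. The 99th percentile over all peaks went from 6.36 and 6.91 in brainstem controls to 23.4 and 24.9 in K27M. In telencephalon cultures 59, 60 and 61 it went from 4.99, 9.57 and 6.16 to 9.40, 18.3 and 25.4. The difference between the regions was not computed over all genes.

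Genes that act with these factors were followed as lists. Of 9 genes of inhibitory and serotonergic neurons, 8 had H3K27me3 in all 10 libraries, among them *Gad1*, *Gad2* and *Slc32a1*, which serve GABA synthesis and transport, *Helt* and *Sox14*, regulators of inhibitory neurons, and *Fev*, a regulator of serotonergic neurons. *Tal2*, a relative of *Tal1*, had it in 4 controls and in 0 K27M libraries. The domain was shorter in 5 of 5 pairs for 5 of these 9 genes, where 46.3% of the 1820 genes marked throughout were. The median log2 ratio of the 9 genes was −0.34, against −0.54 over all 14152 genes and −0.44 over those 1820. *Gad1*, *Gad2* and *Tal2* had H3K4me3 in 10 of 10 libraries, which none of the 8 *Gata*, *Tal1* and *Hand* genes had.

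Of 8 heart genes, *Nkx2-5*, *Tbx5*, *Tbx20* and *Isl1* had H3K27me3 in all 10 libraries. The median log2 ratio of the 6 genes with any was −0.47, against −0.54 over all 14152 genes and −0.44 over the 1820 marked throughout. Among the 4 marked throughout, it was 0.011 for *Nkx2-5*, 0.025 for *Tbx20*, −0.0049 for *Isl1* and −0.93 for *Tbx5*. *Nkx2-5*, *Tbx5* and *Tbx20*, which cooperate with *Gata4* in heart development, each had an H3K4me3 peak in 3 controls (1 brainstem, 2 telencephalon) and in 0 K27M libraries. *Hand2* had one in 3 controls and 1 K27M library. Of the 8 heart genes, 3 had H3K4me3 in all 10 libraries, 1 in none and 4 in some, among these *Isl1* in 9. Of 5 endoderm genes, 4 (*Foxa1*, *Foxa2* and *Sox17* among them) were marked by H3K27me3 in all 10 libraries and *Hnf4a* in 4 controls alone. *Foxa2* and *Sox17* had a shorter domain in 5 of 5 pairs, as had 46.3% of the 1820 genes marked throughout. Of 6 sympathetic neuron genes, 2 (*Phox2a* among them) had H3K27me3 in all 10 libraries, 3 in some and 1 in none. Of the 9 partners in blood and endothelium, such as *Lmo2* and *Runx1*, 7 had H3K4me3 in all 10 libraries and 2 (*Fli1* and *Cbfa2t3*) had H3K27me3 in all 10. A shorter domain in 5 of 5 pairs was found for 0 of them, and for 13.2% of all 14152 genes. The median log2 ratio of the 8 partners with any H3K27me3 was −0.48, between the −0.54 over all genes and the −0.44 over the 1820.

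The promoters of the 8 genes were rich in CpG. Over the whole promoter windows the density ran from 22.5 per kb for *Gata4* to 52.3 per kb for *Hand2*, with a median of 38.8, against 18.0 over protein-coding genes and 29.8 over the 1820 genes with H3K27me3 in all 10 libraries. The genes whose H3K27me3 domain length was closest over the 10 libraries, by the mean absolute log2 difference, were *Foxd3* and *Esx1* for *Gata2* (0.086 for each) and the same pair for *Hand1* (0.067 and 0.054). For *Gata5* they were *Dlx3* (0.13) and *Fgf4* (0.16). *Mnx1* (0.089) was among the closest to *Gata3*, *Barhl2* (0.18) to *Gata4* and *Zdbf2* (0.13) to *Hand2*. *Tal1* and *Gata6* were both closest to *Aatf* and *Lhx1* (0.062 and 0.058), which shared the same domain lengths.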

How the data were processed

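Peak lists of 20 ChIP-seq libraries, 10 for each mark, were analysed, and the 20 input samples have no file here. The submitters' processing notes name bcl2fastq 2.20.0.422, Trim Galore 0.6.7 with cutadapt 3.4, BWA 0.7.17-r1188, MACS2 2.2.7.1 and deepTools 3.5.4, with mm10. The authors called peaks in each library against its input, broad for H3K27me3 and narrow for H3K4me3. The deposited files give the fold enrichment of a peak as a ratio, and its significance as −log10 p-value and −log10 q-value, from the authors' peak caller. The integer score and the summit column that the authors deposited were not used. The spike-in chromatin that was added before ChIP does not enter these values, reads per region were not used here, and depth is described by numbers of peaks. The counts and lengths therefore follow the peak threshold of each library.

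Peaks were merged within a library in Python 3.11.15 with numpy 2.4.6. Transcript starts were taken from GENCODE M21, annotated on GRCm38 (mm10), whereas the study used another release. No peak passed a chromosome end, and 1000 of 1000 RefSeq promoters compared were identical to the genome sequence. Domain lengths were compared as log2 after adding 1000 bp. K27M and control were compared over the 5 matched cultures, which the study describes as assayed together, by an exact permutation test that flips the signs of the pair differences (two-sided, smallest p 0.0625), with Benjamini-Hochberg adjustment over all genes with a peak, and regions by an exact permutation test of 2 against 3 cultures (smallest p 0.1). The 2 or 3 cultures of a group came from pooled pups, so p-values measure the spread between cultures. Cultures 59 and 61 carry the same numbers in both regions, and whether they share litters is not stated. The sign-flip test treats the 5 pairs as independent. Deviations of domain length from the group means correlated between the matched libraries with r = 0.50, 0.20 and −0.27 for H3K27me3 and 0.57, 0.28 and 0.31 for H3K4me3 in telencephalon cultures 59, 60 and 61, and with −0.08 and −0.09 in the brainstem, across genes, which are not independent. The pairing thus comes from the study's methods. Consensus peaks followed the MSPC rule with a weak and a stringent p-value, for H3K4me3 of 1e-06 and 1e-10, for H3K27me3 of 1e-04 and 1e-08. A gene was bivalent if 1 promoter overlapped both by at least 1 bp.

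The 8 genes, the lists of related genes and the tests were chosen with earlier results of these data known. All 8 were named, with related genes from the lists and, as most alike, the 2 protein-coding genes with the smallest mean absolute log2 difference in domain length. Some genes of these lists are not reported here. The functions were checked on simulated data.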

Additional observations from a re-analysis of the deposited data

How the results depend on the processing

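The alternatives were stricter peaks, joined peaks, other windows, protein-coding transcripts, 200 bp in place of 1000, values relative to all genes, and each culture left out. Equal numbers of peaks, the removal of telencephalon cultures 60 and 61 and all alternatives of the fold enrichment, the flanks and the H3K4me3 count were chosen after seeing the data. For the 7 genes with H3K4me3 peaks, 111 of 112 alternative values of the change in K27M kept their direction, and that of *Gata4* was 0 without telencephalon cultures 60 and 61.

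The median log2 change of the H3K27me3 domain was −0.16 with peaks up to 3000 bp apart joined, −0.35 for all base pairs within 50 kb of the gene, and 0.54 relative to all genes, and 3, 3 and 0 genes were then shorter in every pair, against 1. With no replicate block, where every K27M library of a region had to lie below its controls, 0 genes were, and the medians of both marks were −0.0045 and −0.62 as with pairs. With the replicate block between the regions, cultures 59 and 61 paired by number, the medians were −0.03 for H3K27me3 and −0.04 for H3K4me3, so the sign of the region difference was not stable. Unpaired, the exact permutation p within regions, without adjustment, was 0.0167 for the flanks of *Gata3*, *Gata4* and *Hand2*, the smallest this test can give. The p was 0.0333 for the flanks of *Gata5* and for the fold enrichment of *Gata4* and *Hand2*. The share of all genes with unpaired p-values this low was not counted. With pairs, flanking base pairs were fewer in K27M in 5 of 5 pairs for 37.2% of 13610 genes. The median flank change was −0.16 relative to all genes. The H3K4me3 count of 4 became 7 relative to all genes, because subtracting that median turns pairs with no peak into decreases. It was 3 at a fold enrichment of at least 3, in the 50 kb window and at equal numbers of peaks, and 6 without brainstem culture 61 or telencephalon culture 59, where 3 of 4 pairs then counted.

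Single genes changed sign as follows. Joined peaks gave −0.066 for *Gata2*, −0.18 for *Tal1* and −0.14 for *Hand1*. The 50 kb window gave −0.18, −0.53 and −0.066 for the same genes. A fold enrichment of at least 3 gave 0.11 for *Gata5*, and 0.00040 for the flanks of *Hand2*. Relative to all genes, *Gata3* had 0.37, *Gata4* 0.26, *Gata5* 0.12, *Gata6* 0.54 and *Hand2* 0.54, and the flanks of *Gata6* and *Hand1* had 0.92 and 0.35. Equal numbers of peaks gave 0.45 for the flanks of *Gata2*. With a culture pair left out, the length change of *Gata6* ranged from −0.051 to 0.021 and that of *Hand2* from −0.054 to 0.072.

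With each culture left out, the median H3K27me3 change ranged from −0.05 to 0.02, and the genes shorter in every pair from 1 to 3, with 3 without telencephalon culture 59. The H3K4me3 median ranged from −0.77 to −0.56. The bivalent genes of telencephalon controls ranged from 1 to 7, and a peak of both marks in every control culture left 1. Those of brainstem controls, with no culture left out, ranged from 3 to 4 over the alternatives. The region medians ranged from −0.06 to 0.12 for H3K27me3 and from −0.27 to 0.76 for H3K4me3. At a fold enrichment of at least 3 the change in fold enrichment could not be computed, since *Gata5* in telencephalon control 59 peaked at 2.89. Peak lists limit every statement to what passed the caller's threshold, which fewer called peaks in K27M and in telencephalon culture 59 also move.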
